A study of Mus musculus with 2 samples.

Results

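Krt7, Krt8, Krt18, Krt19, Cldn4, Sfn, Cdkn1a and Hopx are 8 genes by which the transitional state of the injured alveolar epithelium is often described. They were followed through single-cell RNA profiles of whole mouse lung, in 1 control and 1 fibrosis library. Each symbol matched 1 of the 27998 genes of the deposited count matrices. In cells gated as alveolar type 2 (AT2), 3 of the 8 genes were higher in the fibrosis library by more than counting error, against 14.2% of all genes tested, and 1 was lower, against 7.02%. The keratin differences there were at most 1.28-fold. Cldn4 had the largest ratio, from 22 UMIs in all, and its interval took in 0 once the cell richest in the 8 genes was left out of each library. Differences of the other genes beyond 1.28-fold were met in the other epithelial gates, in a small number of single cells rich in several of the genes at once, and outside the epithelium.

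Alveolar type 1 (AT1) cells are the thin cells of the gas-exchange surface, and AT2 cells make surfactant and act as their progenitors. After injury, AT2 cells on the way to AT1 cells are known to pass through an intermediate state in which surfactant genes fall and simple-epithelial keratins, tight-junction claudins and p53-linked stress genes rise. Krt8 and Krt18 encode a type II and a type I keratin that pair into filaments, and Krt7 and Krt19 are further keratins of simple epithelia. Cldn4 encodes a tight-junction claudin, Sfn the 14-3-3 sigma protein that holds the cell cycle, Cdkn1a the p21 inhibitor of cyclin-dependent kinases, and Hopx a homeodomain-only cofactor long used to mark AT1 cells.

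Both mice were C57Bl/6J males aged 3 months that were given 100 µg of TiO2 or crocidolite asbestos into the trachea and killed 14 days later. The labels call 1 mouse control and the other fibrosis and do not pair either agent with a mouse, so the groups are named here by those labels. TiO2 particles are commonly used as a control for mineral fibres, and asbestos fibres provoke fibrosis around the airways. Lungs were perfused and digested with dispase and DNase, red cells were lysed, and libraries were made with a droplet kit that reads the 3′ end of each transcript and counts molecules by unique molecular identifiers (UMIs). With 1 mouse a group there is no replicate and no test: every interval below is a 95% interval for counting error alone, and mouse, library and exposure cannot be told apart.

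The deposited matrices held 8280 control cells with 36632591 UMIs and 7173 fibrosis cells with 38090308 UMIs, of which 7510 and 6559 were kept. A cell entered a class when UMIs of enough of that class's marker genes were found in it and the mean level of those markers reached 40% of that of the cells richest in them, none of the 8 genes being a marker. Of the cells in no class, 32 in control and 98 in fibrosis had enough markers of some class and missed only the level. This gave 987 control and 1699 fibrosis AT2-gated cells, 26 and 32 AT1-gated, 70 and 100 club-gated, and 78 and 65 ciliated-gated cells. The gates separated the expected markers: in AT2-gated cells the 10 AT2 markers took 25.8% of control and 23.0% of fibrosis UMIs, and in club-gated cells the club markers took 54.1% and 44.7%. Mucous-cell genes such as Muc5b, Clca1 and Agr2 stood beside Scgb3a1 and Scgb3a2 among the 10 genes that led the club-gated cells by fold, so that gate is not of club cells alone. Of club-gated cells 20% in control and 30% in fibrosis also passed a second gate, against 0.811% and 1.94% of AT2-gated cells. The libraries shared 89 cell barcodes.

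The genes lie on 5 chromosomes of the mouse genome, in the GENCODE M21 annotation of GRCm38, the assembly that mm10 also names. Krt8 (chr15:101996698-102004482, minus strand) and Krt18 (chr15:102028180-102032027, plus strand) are neighbours, 23697 bases apart with 0 genes between them. Krt7 (chr15:101411043-101430313, plus strand) lies on the same chromosome, and Krt19 (chr11:100140810-100148665, minus strand) in the other keratin cluster. Sfn is at chr4:133600556-133602168 on the minus strand, Cldn4 at chr5:134945119-134946934 on the minus strand and Cdkn1a at chr17:29090976-29100727 on the plus strand. Hopx (chr5:77086988-77115121, minus strand) overlaps the oppositely transcribed Hopxos, and Cdkn1a an unnamed gene on the other strand; how the counting used strand is not given in the sources used here. Krt18 has a near copy in Gm5200, 92.1% identical over 428 bases of the last 500 of the transcript and not a row of the matrices, so reads that match both could have been lost or split in the counting.

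RefSeq's promoter table for GRCm38.p6 had entries for 7 of the 8 genes, all but Krt19. Promoter sequences of Cldn4 and Cdkn1a are shown because Cldn4 had the largest ratio of the 8 genes in AT2-gated cells and because Cdkn1a is the textbook target of p53. The Cldn4 window runs over the 250 bases before the gene's start, chr5:134946935-134947184, read on the minus strand, with the 7-base AP-1 motif TGACTCA in capitals; AP-1 is the dimer of Fos and Jun family proteins. The Cdkn1a window runs over the 250 bases before the upstream start, chr17:29090729-29090978 on the plus strand, with a match to the p53 consensus element in capitals.
Cldn4: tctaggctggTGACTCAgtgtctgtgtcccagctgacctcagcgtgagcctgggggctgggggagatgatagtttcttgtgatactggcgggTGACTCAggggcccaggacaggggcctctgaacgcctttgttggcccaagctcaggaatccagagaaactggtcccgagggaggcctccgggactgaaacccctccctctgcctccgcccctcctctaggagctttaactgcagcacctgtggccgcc
Cdkn1a: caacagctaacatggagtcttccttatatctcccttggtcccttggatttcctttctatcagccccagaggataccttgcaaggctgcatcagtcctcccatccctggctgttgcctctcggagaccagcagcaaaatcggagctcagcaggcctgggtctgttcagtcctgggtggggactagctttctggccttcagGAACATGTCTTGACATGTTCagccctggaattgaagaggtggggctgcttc
The Cldn4 window held 2 copies of TGACTCA, 240 and 158 bases before the start. Searched on both strands, this motif was found at least once in 4.46% and at least 2 times in 0.167% of 32851 promoter windows of 250 bases. The p53 consensus, with at most 1 mismatch, was found in 25 windows, or 0.0761%, and that of Cdkn1a began 51 bases before the upstream start. The window before the other Cdkn1a start, chr17:29093519-29093768, held no match. TGACTCA was in no window of the other 6 matched genes and the p53 element in none of the 6 that remain beside Cdkn1a. A match describes the letters in a window and is not a measured binding site.

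Levels are given as UMIs of a gene per 1000000 UMIs of the class (CPM). Among the gated classes, Krt7 was highest in AT1-gated cells of both libraries, at 2380 CPM in control (2110 to 2675) and 1985 in fibrosis (1768 to 2222), and next in mesothelial-gated cells, at 786 and 653. Its club-gated and ciliated-gated levels overlapped within counting error in both libraries, and AT2-gated cells came after these, at 45.4 and 58.0. Krt8 was led in control by AT1-gated (751) and ciliated-gated cells (685), whose intervals overlapped, and in fibrosis by ciliated-gated cells (863, interval 777 to 957) ahead of AT1-gated cells (579, 464 to 713). Krt18 was highest in AT1-gated cells, at 549 and 401, and lowest of the 4 epithelial classes in AT2-gated cells, at 108 and 125. Krt19 had its highest levels in mesothelial-gated cells, 997 in control and 1214 in fibrosis. AT1-gated cells, at 996 and 684 CPM, came next, with intervals that overlapped those of mesothelial-gated cells in control (824 to 1193 and 869 to 1139) and not in fibrosis (559 to 828 and 1078 to 1362). Krt19 was also read in alveolar macrophage-gated cells, at 606 and 341.

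The other genes were ordered differently. Sfn was highest in ciliated-gated cells, at 144 and 124, and reached 60.9 and 56.2 in B cell-gated cells, above its AT2-gated levels of 30.3 and 34.7. Cdkn1a was highest in endothelial-gated cells, at 911 and 454, with mesothelial-gated cells next at 391 and 419. The intervals of these 2 classes were apart in control and overlapped in fibrosis (406 to 506 and 341 to 509). In AT1-gated cells only 2 and 1 Cdkn1a UMIs were counted. Hopx was highest in AT1-gated cells, at 2650 and 1775, and the next class was endothelial-gated in control (236) and ciliated-gated in fibrosis (97.5). Cldn4 had the fewest UMIs: 30 UMIs in all kept control cells and 108 in all kept fibrosis cells, and its ciliated-gated and club-gated levels, 10.57 and 11.04 in control and 19.02 and 17.47 in fibrosis, overlapped.

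**Figure D1:**
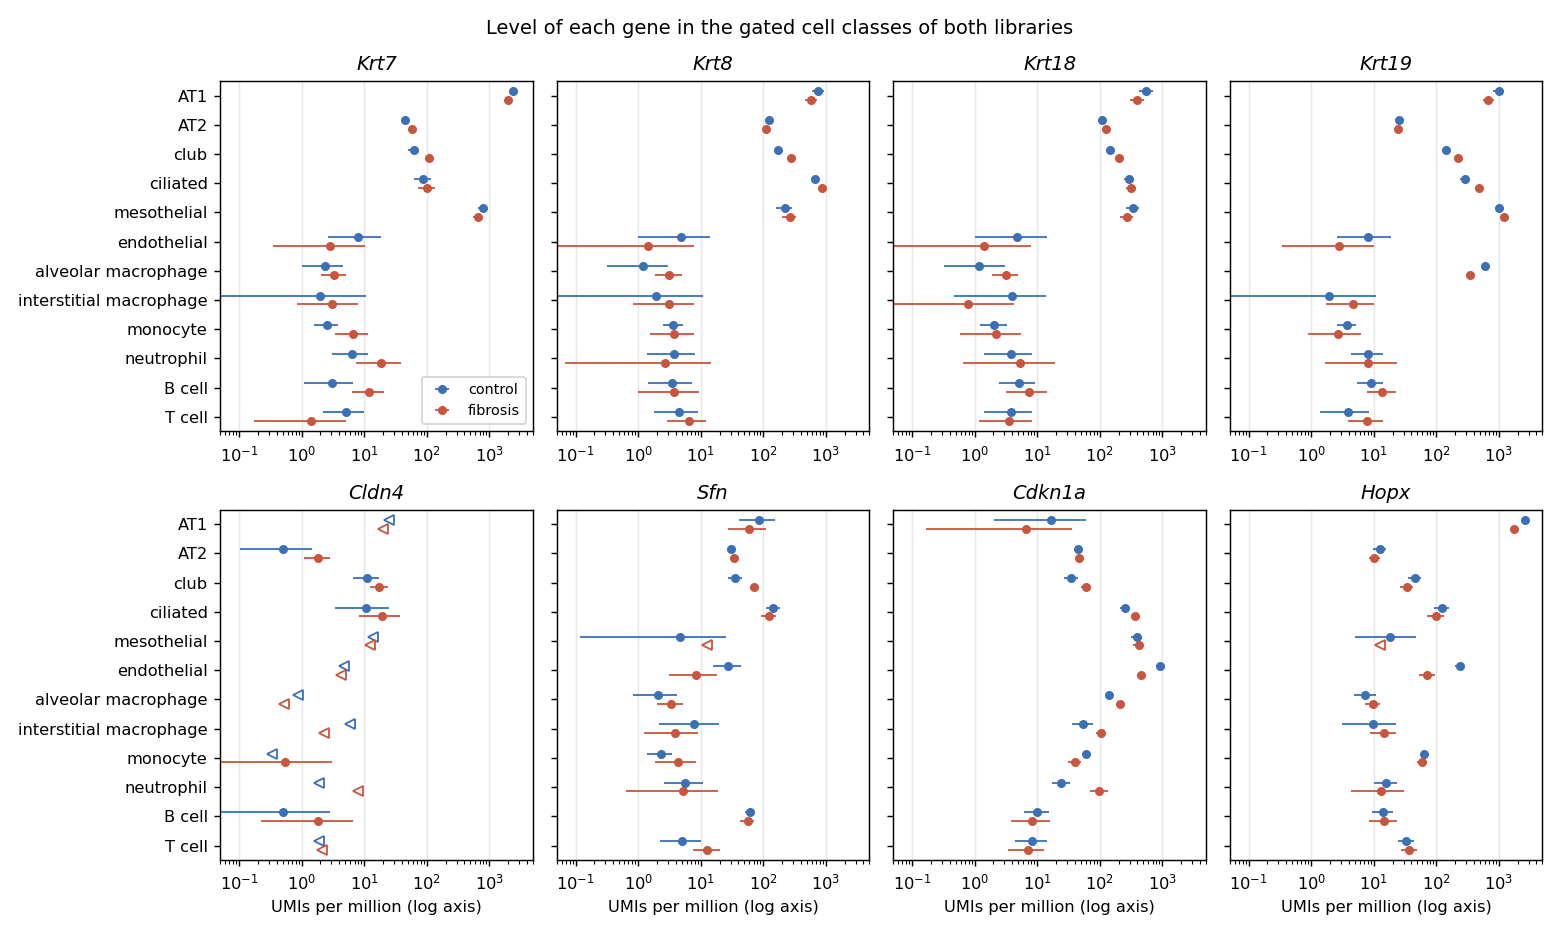
CPM on a log axis for each of the 8 genes in 12 gated classes, control in blue and fibrosis in red. Points are class totals, lines their exact Poisson 95% intervals, cut off at the left edge, and open triangles are the limits that 3 UMIs would give where 0 UMIs were counted. Krt7, Krt8 and Krt18 are high in the 4 epithelial classes and in mesothelial-gated cells, Krt19 also in alveolar macrophage-gated cells, and Cdkn1a in endothelial-gated cells.

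Over all kept cells Hopx had a lower level in fibrosis (47.8 and 30.8 CPM) and the other members a higher one. The share of all genes that were higher over all kept cells was not computed, so this is not read as a result about the members. Krt8 went from 54.7 to 87.1 CPM over all kept cells and Krt18 from 41.9 to 72.7, while AT2-gated cells went from 13.1% to 25.9% of kept cells. Within the AT2 gate the picture was smaller and mixed, which is why the values below are given by class.

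The keratins of cells inside the AT2 gate differed by little between the libraries. That gate asks for AT2 markers, surfactant genes among them, so a cell in which these had fallen could miss it. The values here do not describe such cells. Ungated cells with 5 to 7 of the 10 AT2 markers, 88 in control and 268 in fibrosis, are described further below. Krt7 had 274 UMIs in control and 605 in fibrosis, or 45.4 and 58.0 CPM, a log2 ratio of fibrosis over control of 0.35 (0.15 to 0.57). Krt18 had 652 and 1306 UMIs, or 108 and 125 CPM, a log2 ratio of 0.21 (0.08 to 0.35). Its filament partner Krt8 went the other way, with 736 and 1141 UMIs or 122 and 109 CPM and a log2 ratio of -0.16 (-0.29 to -0.02). The 2 keratins that pair in one filament therefore had ratios of opposite sign, each with an interval that leaves out 0. Krt19 had 156 and 259 UMIs, or 25.8 and 24.8 CPM, and its log2 ratio of -0.06 (-0.35 to 0.24) was within counting error. No keratin among the 4 came near a 2-fold difference in this class. With each gene's median log2 ratio over the other gated classes subtracted, Krt7 (-0.27) and Krt18 (-0.13) turned below 0, and in thinned cells Krt18 was at 0.0034.

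The junction and stress genes of AT2-gated cells were at or near equal levels, apart from Cldn4. Sfn had 183 and 362 UMIs, 30.3 and 34.7 CPM, with a log2 ratio of 0.20 (-0.06 to 0.46). Cdkn1a, at 45.7 and 46.4 CPM from 276 and 484 UMIs, had a log2 ratio of 0.02 (-0.19 to 0.24). Hopx had 75 and 107 UMIs, 12.4 and 10.3 CPM, and a log2 ratio of -0.28 (-0.71 to 0.17). These 3 intervals include 0, which does not show that the levels were the same: the Cdkn1a interval runs from 0.19 lower to 0.24 higher on the log2 scale. Cldn4 had 3 UMIs in 3 control cells and 19 UMIs in 11 fibrosis cells, 0.497 and 1.82 CPM, with a log2 ratio of 1.87 (0.11 to 4.27). A single fibrosis cell held 4 of those 19 UMIs. With the cell richest in the 8 genes left out of each library, the Cldn4 interval took in 0 (1.63, -0.18 to 4.05).

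Of 11511 genes with at least 20 UMIs in AT2-gated cells, 14.2% had an interval above 0, 7.02% one below 0, and 21.2% either, against 3, 1 and 4 of the 8 genes. Past 2-fold in either direction were 4.95% of genes, and 1 of the 8, Cldn4, with 0.5 UMI added to each sum. An interval narrows as a gene's UMIs rise, so this share also depends on how strongly a gene is read. The median log2 ratio was 0.11 over the 8 genes and 0.05 over all genes tested. In the same cells Lcn2, an antibacterial protein gene of injured epithelium, was at 772 and 2060 CPM.

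**Figure D2:**
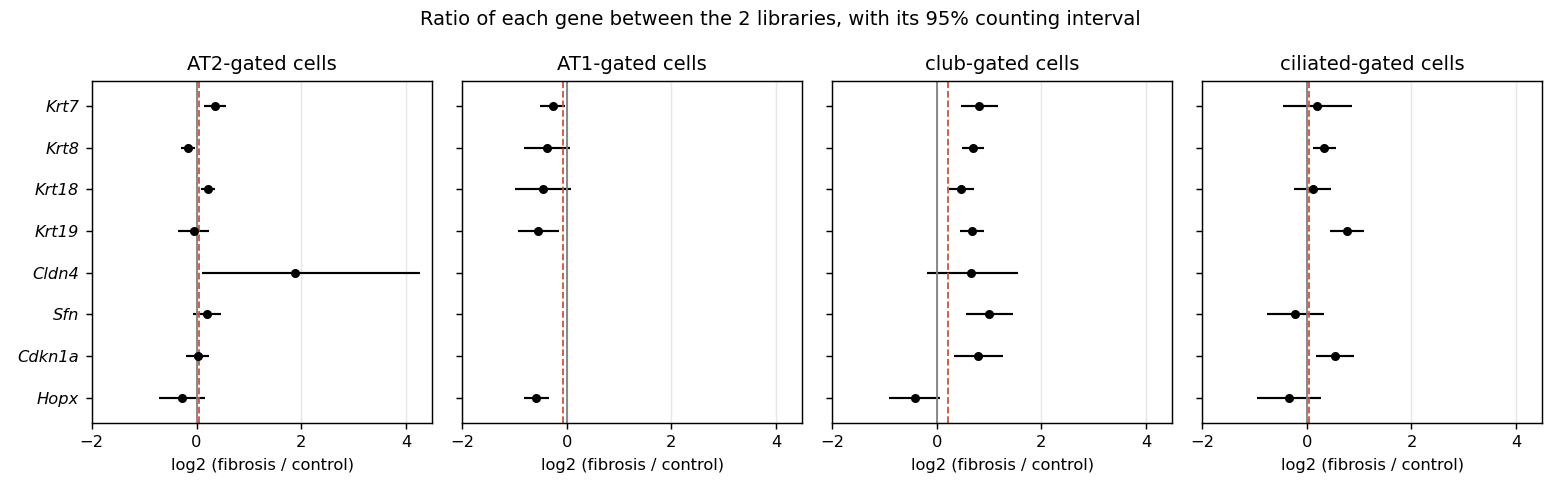
Log2 ratio of fibrosis over control for each gene with at least 20 UMIs in AT2-, AT1-, club- and ciliated-gated cells. Points are ratios of the 2 libraries, lines exact 95% counting intervals, the grey line is 0 and the dashed red line the median of all genes tested in the class. The AT2 panel stays near 0 apart from Cldn4 at 1.87, and 7 of the 8 points of the club panel lie right of 0.

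Cells were also counted by whether they held a UMI of each gene, after each cell had been thinned at random to 1400 UMIs so that depth is equal. Krt8 was found in 14.6% of control AT2-gated cells (12.4% to 17.0%) and 12.8% of fibrosis cells (11.2% to 14.5%). Krt18 was found in 13.6% and 13.5%, Krt7 in 6.18% and 7.95%, and Cdkn1a in 5.37% and 5.30%. Each pair of intervals overlapped. RNA released from broken cells gives UMIs in cells that do not express a gene, and B cell-gated cells served as its measure: there the thinned shares were 0.664% and 0.518% for Krt8, 0.886% and 1.295% for Krt18, 0.443% and 1.295% for Krt7, and 1.22% and 1.295% for Cdkn1a. These B cell-gated cells had a median of 1843 and 2550 UMIs before thinning, and AT2-gated cells 5667 and 5518. Krt19, in 3.45% of control and 2.65% of fibrosis AT2-gated cells, stood closer to its B cell-gated shares of 1.44% and 2.33%. Hopx, in 1.62% and 0.883% of AT2-gated cells, lay at or below the B cell-gated shares of 1.77% and 2.07%. Before thinning, Hopx had 75 and 107 UMIs in 987 and 1699 AT2-gated cells, and 28 and 16 in 903 and 386 B cell-gated cells. Thinning took away more of the deeper AT2-gated cells, so whether their Hopx is background was not settled. Sfn could not be set against B cell-gated cells, 7.97% and 8.29% of which held it; in T cell-gated cells the shares were 0.591% and 1.35%, against 3.55% and 3.83% in AT2-gated cells. Thinned Cldn4 was found in 0 of 987 control AT2-gated cells, which allows a share of up to 0.304%, and in 3 fibrosis cells, or 0.177%. Without thinning the shares were 43.0% and 37.4% for Krt8, 42.6% and 42.4% for Krt18, and 22.4% and 25.5% for Krt7.

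Of 13 further transitional-state genes 11 had at least 20 UMIs in AT2-gated cells, 0 of them were past 2-fold, and their median log2 ratio was 0.07. Of the 11, 4 had an interval above 0 and 1, Nupr1, one below 0. Sprr1a, which encodes a small proline-rich protein, had the highest ratio, at 11.8 and 22.0 CPM with 0.90 (0.51 to 1.31). Hbegf, which encodes an EGF receptor ligand, had 0.53 (0.11 to 0.97), and the cyclin D1 gene Ccnd1 0.35 (0.23 to 0.47). The pair with the most UMIs were Nupr1, a stress-response regulator, at 571 and 537 CPM, and Clu, which encodes the chaperone clusterin, at 104 and 185 CPM with a log2 ratio of 0.83 (0.70 to 0.97). Of 10 further keratins only Krt10 and Krt23 had enough UMIs, at 21.0 and 22.0 and at 63.9 and 54.1 CPM. Of 21 genes of the p53 response 18 were measured, 0 were past 2-fold, and the median log2 ratio was 0.21. Among these, Rps27l, a ribosomal-protein-like p53 target, had 378 and 453 CPM with a log2 ratio of 0.26 (0.19 to 0.34). Btg2, an antiproliferative p53 target, had 110 and 96.2 with a log2 ratio of -0.19 (-0.33 to -0.05). Beside Rps27l, the p53 list genes with an interval above 0 were Trp53 (0.51), Ccng1 (0.33), Bax (0.36), Zmat3 (0.62) and Ei24 (0.23). Beside Btg2, only Perp (-0.34) had one below 0. Of all genes tested in this class 14.2% had an interval above 0 and 7.02% one below.

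AT2-gated cells were also split by whether a UMI of Lcn2 or Il33 was found after thinning. In fibrosis, Krt18 was at 111 CPM in the 1402 cells with such a UMI (104 to 118). In the 297 cells without, it was at 202 (181 to 225). Krt8 was at 103 (96.7 to 110) and 142 (124 to 161) in the same sets. The control values, in 629 and 358 cells, were 101 and 120 for Krt18 and 118 and 129 for Krt8, with intervals that overlapped. A single fibrosis AT2-gated cell of 11306 UMIs held 46 Krt8 and 32 Krt18 UMIs. Which set it fell in was not recorded, so its part in these values was not tested.

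In AT1-gated cells, where Krt7, Krt19 and Hopx are strongest among the 4 epithelial classes, levels were lower in the fibrosis library. Hopx had 314 UMIs over 26 control cells and 270 over 32 fibrosis cells, 2650 and 1775 CPM, a log2 ratio of -0.58 (-0.82 to -0.34). Krt19 had 118 and 104 UMIs, 996 and 684 CPM, a log2 ratio of -0.54 (-0.94 to -0.15). Krt7, with 282 and 302 UMIs, had a log2 ratio of -0.26 (-0.50 to -0.02). The intervals of Krt8 (-0.38, -0.82 to 0.06) and Krt18 (-0.45, -0.98 to 0.07) included 0. So 3 of the 5 genes with at least 20 UMIs had an interval below 0, against 6.58% of 2264 genes. Against the class median of -0.08 the Krt7 interval took in 0. It also did so without the cell richest in the 8 genes in each library (-0.25, -0.51 to 0.0014), and that of Krt19 did so without the cell richest in Krt19 in each (-0.41, -0.84 to 0.01). The AT2 marker list summed to 1713 CPM in control and 5712 in fibrosis AT1-gated cells, and the AT1 marker Ager was at 27250 and 19810; the part of these in the lower Hopx and keratin levels was not tested. Cldn4 had 0 UMIs in both sets, with limits of 25.3 and 19.7 CPM, so a level like that of club-gated cells would not have been detectable.

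Club-gated cells showed the broadest difference among the 4 epithelial classes. Of the 8 genes 6 had an interval above 0, against 15.1% of 8788 genes tested in that class. Sfn had 58 and 151 UMIs, 35.6 and 71.3 CPM, a log2 ratio of 1.00 (0.56 to 1.47). Krt8 had 281 and 590 UMIs, 172 and 279 CPM, with 0.69 (0.49 to 0.90). Krt19 had 232 and 479 UMIs, 142 and 226 CPM, with 0.67 (0.44 to 0.90). The type I partner of Krt8, Krt18, was at 145 and 201 CPM with 0.47 (0.24 to 0.71). With the class's own markers, 54.1% and 44.7% of its UMIs, left out of the total, the Krt18 interval took in 0 (0.20, -0.03 to 0.44), while that of Krt8 did not (0.43, 0.22 to 0.64). Cdkn1a, at 35.0 and 60.4 CPM, had a log2 ratio of 0.79 (0.33 to 1.27). Hopx alone pointed the other way, at 45.4 and 34.0 CPM (-0.42, -0.91 to 0.07). In this class the median log2 ratio of all genes was 0.22, and relative to it Krt7 was 0.59, Krt8 0.48, Krt19 0.45, Krt18 0.26, Sfn 0.79 and Cdkn1a 0.57 higher, while Hopx was lower by more than counting error (-0.63, -1.12 to -0.14). None of the 8 was past 2-fold with 0.5 UMI added (Sfn missed it narrowly, at a log2 ratio of 0.9953), against 7.87% of genes in either direction.

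A single fibrosis cell weighed on the club-gated values. It had 92993 UMIs, of which 341 came from the 8 genes, among them 94 of Krt19, 86 of Krt7, 77 of Krt8 and 17 of Cldn4, together with 8095 of Scgb1a1, 107 of Sftpc and UMIs of 9 AT2 markers. With the richest cell left out of each library, Krt7 went from a log2 ratio of 0.81 (0.47 to 1.16) to 0.23 (-0.15 to 0.62). Cldn4, at 18 and 37 UMIs with it, went from 0.66 (-0.19 to 1.56) to -0.19 (-1.18 to 0.82). Krt8 (0.62), Krt18 (0.50), Krt19 (0.50), Sfn (0.89) and Cdkn1a (0.75) kept intervals above 0. In thinned cells, where 5 to 7 UMIs of each were left, Sfn (-0.0291) and Cdkn1a (-0.25) had ratios below 0. The share of club-gated cells with UMIs of at least 3 of the 7 genes other than Hopx was 4.29% and 9% after thinning, 3 and 9 cells.

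The club gate also held cells with ciliated markers, and in them Krt8 and Krt19 were at like levels in both libraries. In the 13 control and 17 fibrosis club-gated cells that also passed the ciliated gate, Krt8 was at 316 and 315 CPM and Krt19 at 200 and 204. In the 57 and 83 that did not, Krt8 was at 129 and 267 (110 to 150 and 242 to 293), Krt19 at 125 and 233, and Cdkn1a at 20.8 and 47.4. The 83 include the cell of 92993 UMIs. Whether the ratios of the 2 sets differ was not tested. AT2 markers summed to 6410 and 8387 CPM in club-gated cells, and the part of this in the result was not tested.

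Other transitional-state genes were higher in fibrosis club-gated cells too. Of 13, 7 had at least 20 UMIs and 5 of these were past 2-fold higher, none lower, against 6.91% of all genes past 2-fold higher. Areg, which encodes the EGF receptor ligand amphiregulin, had 17 and 202 UMIs, 10.4 and 95.4 CPM, a log2 ratio of 3.19 (2.48 to 4.001). Clu was at 81.0 and 309 CPM, with 1.93 (1.66 to 2.21), and Lgals3, which encodes galectin-3, at 56.4 and 113, with 1.01 (0.65 to 1.37). Tnip3, which encodes an inhibitor of NF-kB signalling, had 0 control and 25 fibrosis UMIs. Itgb6, which encodes the integrin chain that activates TGF-beta, had only 5 and 17 UMIs, and its interval (-0.11 to 3.18) included 0. Of the p53 response genes, by contrast, 1 of 16 was past 2-fold higher in club-gated cells, Zmat3 with 5 and 22 UMIs, and their median log2 ratio was 0.32.

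Much of the Areg and Tnip3 signal came from the cell of 92993 UMIs, which held 174 of the 202 Areg and 22 of the 25 Tnip3 UMIs. With the cell richest in the 8 genes left out of each library, Areg was at 10.0 and 13.8 CPM, a log2 ratio of 0.47 (-0.47 to 1.45), and Lgals3 at 55.7 and 82.0, with 0.56 (0.18 to 0.95). Of the 13 list genes 5 then had at least 20 UMIs and 1 was past 2-fold higher, Clu, at 80.0 and 272 CPM with 1.77 (1.49 to 2.05). Zmat3 had 1.51 (0.02 to 3.29).

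Ciliated-gated cells differed in 3 of the 7 genes with at least 20 UMIs, against 6.49% of 6411 genes with an interval above 0. Krt19 had 135 and 204 UMIs, 286 and 485 CPM, a log2 ratio of 0.76 (0.44 to 1.09). Cdkn1a had 120 and 155 UMIs, 254 and 369 CPM, with 0.54 (0.19 to 0.89). Krt8 had 324 and 363 UMIs, 685 and 863 CPM, with 0.33 (0.11 to 0.55). Its partner Krt18 was within counting error (294 and 319 CPM, 0.12, -0.24 to 0.47), as were Krt7, Sfn and Hopx. In the same cells the summed club markers went from 50080 to 16890 CPM, led by Scgb1a1 at 38620 and 6928, and the part of this in the ratios was not tested. Without the cells that passed a second gate, Krt19 (0.76) and Cdkn1a (0.62) were as high, and the Krt8 interval took in 0 (0.24).

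Co-detection asked whether the genes met in the same cells. After thinning, 63.0% of AT2-gated cells in both libraries held none of the 7 genes other than Hopx. At least 3 of the 7 were found in 12 of 987 control cells, 1.22% (0.63% to 2.11%), and in 24 of 1699 fibrosis cells, 1.41% (0.91% to 2.10%). At least 4 were found in 1 and 6 cells. The intervals overlapped, and without thinning the shares with at least 3 were 19.2% and 18.9%. Ciliated-gated cells held at least 3 in 29.5% and 35.4%, and AT1-gated cells in 61.5% and 40.6%.

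Krt8 and Krt18 met in somewhat more AT2-gated cells than independent draws would give. In thinned control cells 27 held both where 19.6 would be met if detection were independent, and in fibrosis 36 where 29.4 would. Krt8 and Krt19 met in 7 control cells against 4.96 and in 14 fibrosis cells against 5.75. Thinning evens out depth, but cells still share cell-free RNA, and these counts are descriptions. Unthinned, all 3 control AT2-gated cells with Cldn4 also held Krt8, as did 9 of the 11 fibrosis cells.

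**Figure D3:**
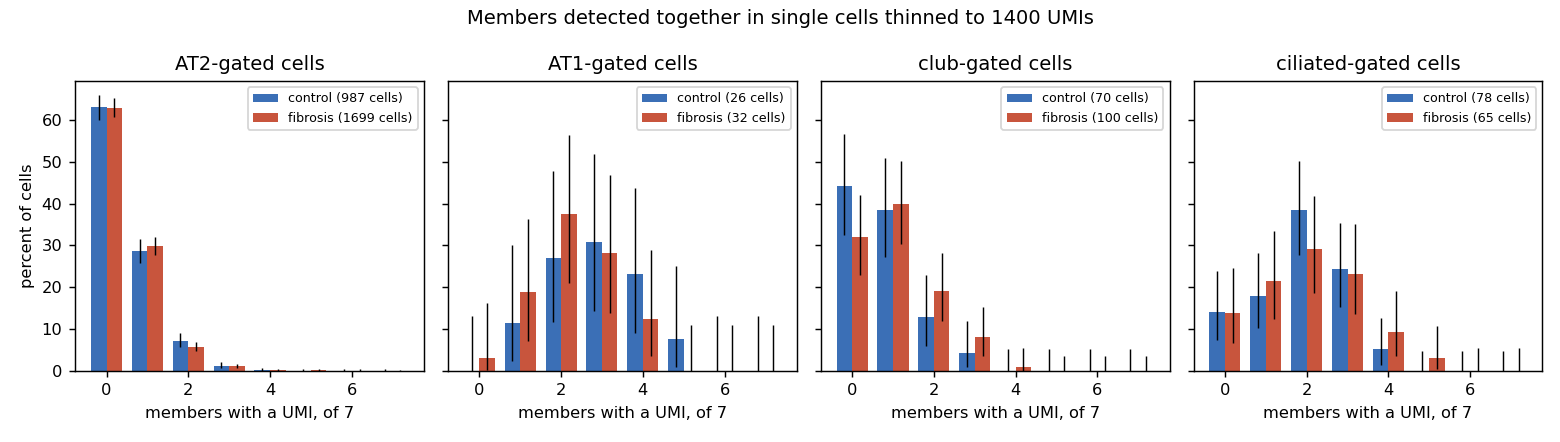
Percent of gated cells by the number of the 7 genes other than Hopx with a UMI, after thinning to 1400 UMIs, control in blue and fibrosis in red, with exact binomial 95% intervals. In AT2-gated cells the bars of both libraries coincide, with 63.0% at 0 genes, while AT1-gated and ciliated-gated cells centre on 2 to 3 genes.

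The few AT2-gated cells with 5 or more Krt8 UMIs differed more between the libraries than the class did. There were 21 in control and 24 in fibrosis. In these, Krt18 was at 315 and 753 CPM, Sfn at 85.5 and 253, and Cdkn1a at 85.5 and 232. A single fibrosis cell, of 11306 UMIs, held 39 of the 57 Cdkn1a and 25 of the 62 Sfn UMIs of the 24. Without the cell richest in the 8 genes in each library, Cdkn1a was at 88.2 and 76.8 CPM, Sfn at 77.2 and 158, and Krt18 at 292 and 653. Cldn4 had 1 and 12 UMIs in the full sets, 12 of the 19 fibrosis UMIs of the class. Sftpc, the surfactant protein C gene, was at 199100 in the control cells with 5 or more Krt8 UMIs and 201200 in the other control cells, but at 109000 and 174400 in fibrosis. Scgb1a1, the club-cell secretoglobin, was at 5576 in the control cells with 5 or more Krt8 UMIs and 45380 in those of fibrosis, so club-cell RNA moved with them and its part was not tested. A single cell of 44296 UMIs gave 7501 of the 11142 Scgb1a1 UMIs of the 24. These cells were chosen by a measured gene, and with them left out the Krt18 interval of the class took in 0 (0.12, -0.03 to 0.27) and Cldn4 had 2 and 7 UMIs.

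Single cells with UMIs of 6 or 7 of the 7 genes were rare. Among AT2-gated cells there were 3 in control and 10 in fibrosis, and among cells that passed no gate 2 and 5. The 10 fibrosis cells were deep, with a median of 12360 UMIs against 5518 for all fibrosis AT2-gated cells, so their number is not depth-matched. The clearest was the fibrosis AT2-gated cell of 11306 UMIs with 46 UMIs of Krt8, 32 of Krt18, 39 of Cdkn1a, 25 of Sfn, 20 of Krt7, 5 of Krt19, 3 of Cldn4 and 37 of Clu. It held UMIs of all 10 AT2 markers, but 6 of Sftpc, or 5.31 per 10000, where the median fibrosis AT2-gated cell had 1242 per 10000. Krt8, Krt18 and Cdkn1a RNA was thus high and Sftpc RNA low in the same cell. Levels of its other surfactant genes are not given. It had 33 UMIs of Scgb1a1 and UMIs of 2 of the 8 club markers.

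A fibrosis cell of 9256 UMIs that passed no gate was also rich in keratins. It held 49 UMIs of Krt18, 41 of Krt8, 37 of Sfn, 17 of Krt19 and 2 of Cldn4, with 242 of Sftpc and UMIs of 7 AT2 markers, 1 fewer than the gate asks, but only 1 of Cdkn1a. It also held UMIs of 7 of the 8 club markers, enough for that gate in number, but their level was 25.1% of the reference where the gate asks 40%, and Scgb1a1 had 9 UMIs. Another ungated fibrosis cell, of 30443 UMIs, was led by 83 UMIs of Krt7 and 72 of Krt19, with 105 of Clu and 60 of the AT1 marker Ager. It held UMIs of 7 of the 10 AT1 markers, the number that gate asks, at a level of 35.8%, just under the limit, and UMIs of 7 AT2 and 5 club markers. Control had such a cell as well: 1 of 9823 UMIs held 13 of Krt8, 11 of Krt18, 8 of Krt19, 7 of Sfn and 42 of Clu, with 410 of Sftpc. Other fibrosis cells carried secretory RNA, such as the AT2-gated cell of 44296 UMIs with 22 of Krt8, 13 of Krt19 and 7501 of Scgb1a1. In all, Krt8 reached 10 UMIs per 10000 in 4 control and 10 fibrosis AT2-gated cells, 0.405% and 0.589%.

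**Figure D4:**
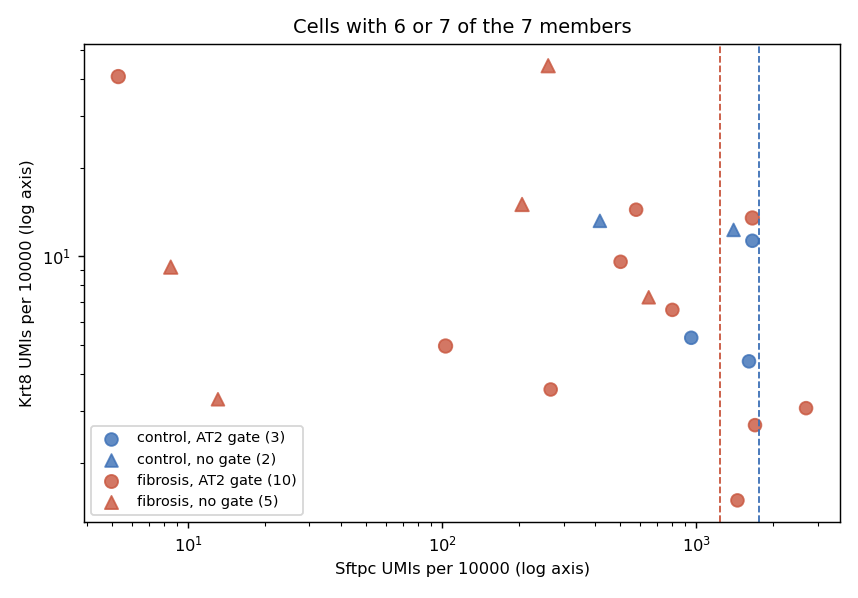
AT2-gated and ungated single cells with UMIs of 6 or 7 of the 7 genes other than Hopx, plotted by Sftpc and Krt8 UMIs per 10000 on log axes. Circles are AT2-gated and triangles ungated cells, blue control and red fibrosis, and the dashed lines are the median Sftpc of all AT2-gated cells, 1765 in control and 1242 in fibrosis. The 5 control cells lie at 417 or more on the Sftpc axis, and 1 fibrosis circle lies at 5.31.

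Cells outside the classes carried more of several of these genes in fibrosis. Among cells that passed no gate, 1014 in control and 1398 in fibrosis, Krt19 was at 9.96 and 29.0 CPM (log2 ratio 1.54, 1.01 to 2.11) and Krt7 at 9.39 and 25.0 (1.41, 0.86 to 2.00). Krt8 was at 11.7 and 20.6 (0.82, 0.30 to 1.37), and Sfn at 8.82 and 20.6 (1.23, 0.65 to 1.84). In fibrosis most of these UMIs came from the 268 cells with 5 to 7 of the 10 AT2 markers. In control the 88 such cells held 10 of 33 Krt7, 15 of 35 Krt19, 25 of 41 Krt8 and 11 of 31 Sfn UMIs. In the cells with 5 to 7 AT2 markers, Krt7 was at 21.4 and 73.9 and Krt19 at 32.1 and 76.3. Cdkn1a in these cells was at 66.4 and 136 and Krt8 at 53.5 and 63.6. Leaving the cell richest in the 8 genes out of each library gave 26.25 and 47.5 for Krt8 and 65.6 and 137 for Cdkn1a. Krt7 was then at 8.75 and 24.1 and Krt19 at 15.3 and 33.3. One deep ungated fibrosis cell, that of 30443 UMIs with AT1, AT2 and club markers, gave 83 of the 122 Krt7 and 72 of the 126 Krt19 UMIs in those 268 cells. With the cell richest in the 8 genes left out of each library, Krt7 over all ungated cells had a log2 ratio of 0.53 (-0.14 to 1.23). Krt19 then had 1.14 (0.52 to 1.81), Krt8 1.00 (0.38 to 1.67) and Sfn 1.3002 (0.65 to 2.01). The ungated fibrosis cell of 9256 UMIs stayed in, and held 41 of the 95 Krt8 and 37 of the 100 Sfn UMIs left. Leaving out instead the cell richest in the gene itself gave 0.79 (0.15 to 1.46) for Krt8 and 1.27 (0.57 to 2.03) for Sfn. For Krt18, at 0.84 (0.27 to 1.43) over all ungated cells, it gave 0.48 (-0.23 to 1.24).

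Cells that passed several gates, 149 and 206, held 3 Cldn4 UMIs in control and 33 in fibrosis, 2.33 and 15.0 CPM (log2 ratio 2.69, 1.02 to 5.04). Their Krt19 was at 87.7 and 218 (1.31, 1.01 to 1.62) and their Krt8 at 154 and 267 (0.79, 0.56 to 1.03). Without the richest cell of each library, Cldn4 had a ratio of 1.41 (-0.43 to 3.85), Krt19 of 1.03 (0.72 to 1.35) and Krt8 of 0.75 (0.50 to 1.01). They were not alike in make-up: 6 control and 16 fibrosis cells were AT2 and club by their markers and 11 and 29 ciliated and club, and club markers summed to 140600 and 194800 CPM. The part of that make-up in the ratios was not tested.

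Outside the epithelium, Krt19, Cdkn1a and Hopx had differences as large as in any epithelial class. Alveolar macrophage-gated cells held 2063 and 1949 Krt19 UMIs in 670 and 984 cells, 606 and 341 CPM, a log2 ratio of -0.83 (-0.92 to -0.74), where 16.3% of 10351 genes had an interval below 0. The other 3 keratins were at 1.18 to 3.33 CPM in these cells. The lower Krt19 level was seen in cells with a UMI of Mmp12 or Spp1 after thinning (598 and 290) and in cells without (610 and 435). Cdkn1a was higher in fibrosis in these cells, at 140 and 208 CPM (0.57, 0.42 to 0.73; 10.2% of genes had an interval above 0), and in interstitial macrophage-gated cells, at 54.5 and 105 (0.95, 0.35 to 1.59).

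In endothelial-gated cells Cdkn1a had 567 and 321 UMIs in 246 and 172 cells, 911 and 454 CPM, a log2 ratio of -1.01 (-1.21 to -0.81). Hopx had 147 and 51 UMIs, 236 and 72.1 CPM, with -1.71 (-2.20 to -1.24). With Sfn, at 17 and 6 UMIs, 3 of the 3 genes that had at least 20 UMIs were past 2-fold lower, against 4.61% of 7483 genes. Both stood mostly in cells without a Vwf UMI after thinning, in which Cdkn1a was at 1133 and 592 and Hopx at 319 and 128; in cells with Vwf, Cdkn1a was at 327 and 305. Cells with Vwf were 50 of 246 in control and 66 of 172 in fibrosis. Car4, a marker of a capillary type, went from 2102 to 660 CPM, and the AT1 marker list from 1983 to 809. Other endothelial genes went in different directions: Ednrb from 676.5 to 246, Gpihbp1 from 395 to 382 and Kit from 56.2 to 84.8 CPM. Fewer cells of a capillary type and less RNA of these genes per cell cannot be told apart here.

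**Figure D5:**
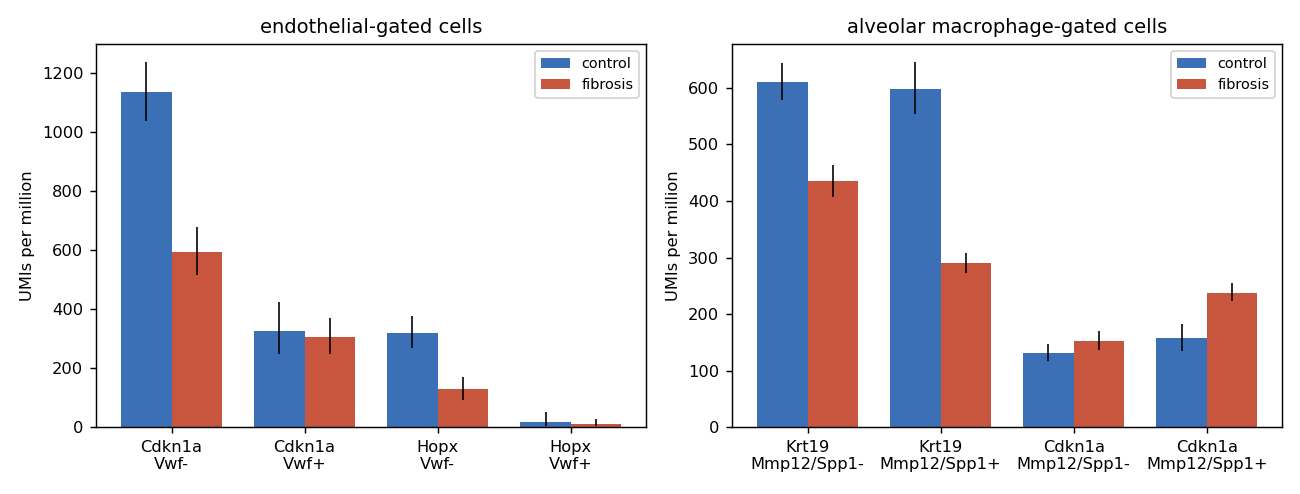
CPM of Cdkn1a and Hopx in endothelial-gated cells without and with a Vwf UMI (left) and of Krt19 and Cdkn1a in alveolar macrophage-gated cells without and with an Mmp12 or Spp1 UMI (right), control in blue and fibrosis in red, with exact Poisson 95% intervals. Cdkn1a and Hopx differ between libraries in Vwf-negative cells, and Krt19 is lower in fibrosis in both macrophage sets.

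Profiles over the 11 classes of at least 50 cells in each library, 22 points of log2(CPM + 10), showed which genes were most like each member. The points share libraries and cell-free RNA, and the correlations are descriptions. Krt8 and Krt18 had an r of 0.99 with each other. The highest for Krt8 were Gm16136 (0.99), the forkhead factor gene Foxa2 (0.99) and the epithelial factor gene Grhl2 (0.99), and for Krt18 Foxa2 (0.99), Plxnb1 (0.99) and the claudin gene Cldn7 (0.99). Krt7 was closest to Krt18 (0.97), Tmc4 and Tom1l1. Krt19, with its macrophage signal, was closest to Ffar4 (0.96), Perp (0.96) and Plet1 (0.94), the last a marker of the alveolar macrophage gate. Sfn was closest to Map7 (0.92) and to the B cell gene Vpreb3 (0.92), with Strbp next (0.91). Cdkn1a was closest to Cdc42bpb (0.93), Sept10 (0.92) and the p53 target Phlda3 (0.91), and Hopx to Rtca (0.83), Arl2bp (0.82) and Tuba1a (0.81). Krt19 and Hopx had an r of 0.02, so the 8 genes did not share 1 profile over these 11 classes. Cldn4, with 94 UMIs in all gated cells, was too rare for a profile.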

How the data were processed

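Per the labels' protocols, lung cells of 2 mice were profiled with 10x Genomics 3′ V2 chemistry. The authors deposited, for each library, a matrix of raw UMI counts per gene and cell; the submitters' processing notes name bcl2fastq, Cell Ranger 1.3 and the mm10 build without their roles. How reads were assigned to genes and how cells were called is not given in the sources used here. The lowest totals per cell were 1460 and 1915 UMIs. The matrices name genes by Ensembl ID and symbol, and 27722 of 27998 IDs matched GENCODE M21.

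From these counts, cells with fewer than 200 genes (1 and 0) or over 10% mitochondrial UMIs (254 and 228) were removed. Simulated-doublet scores (scanpy 1.11.5 and scikit-learn 1.9.0 under Python 3.11.15, 30 components of 2000 variable genes) removed a further 515 and 386 cells, 6.42% and 5.56%, at the rate of 0.8% per 1000 cells. The median kept cell had 3708 and 4235 UMIs. Cells were gated by the number of markers with a UMI: 8 of 10 for AT2, 7 of 10 for AT1, 6 of 8 for club and 7 of 10 for ciliated, 14 classes in all. The mean log2(UMIs per 10000 + 1) of the class's markers also had to reach 40% of its 99.9th percentile over kept cells; 2 marker symbols were not in the files. Gate thresholds were set after seeing the data. Cells that passed more than 1 gate went to the class whose markers were clearly higher (by 1.5 times), or else to a set of several gates. UMIs were summed per class and library and divided by class totals. Intervals are exact (Poisson, Clopper-Pearson, or the conditional interval of a ratio of 2 Poisson counts; scipy 1.17.1), at 95%, and cover counting error only. A gene needed 20 UMIs over both libraries; fold counts had 0.5 UMI added. A count of 0 is given the limit of 3 counts. Cells were thinned with a fixed seed to 1400 UMIs. Interval coverage and ratio recovery were tested on class sums simulated as Poisson counts, the model of the intervals. That test does not cover UMIs bunched in single cells. Transcript copies were sought with minimap2 2.31-r1302. The 8 genes, the marker lists and the gene lists were chosen with earlier results of these data known. The text names the 8 genes, list genes past 2-fold (else the 2 with most UMIs), and the 3 most correlated genes of each member among genes of at least 200 UMIs; the other genes named were chosen after their values were seen. Other settings changed gates, doublets, the UMI floor, mitochondrial limits, weighting, scaling, thinning and filters.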

Additional observations from a re-analysis of the deposited data

How the results depend on the processing

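No paired analysis was possible because each group holds 1 library, and no library could be left out in turn. With counting intervals as the spread, 101 of 110 alternative values in AT2-gated cells, 62 of 79 in club-gated, 78 of 79 in ciliated-gated, 24 of 26 in alveolar macrophage-gated and 25 of 26 in endothelial-gated cells stayed within the spread, as did 73 of 90 shares. In AT2-gated cells, subtracting each gene's median log2 ratio in the other gated classes gave -0.27 for Krt7 and -0.13 for Krt18, both now below 0, and -0.67 for Krt8, -0.67 for Krt19, -0.44 for Sfn and -0.37 for Cdkn1a. Thinning gave 0.0034 for Krt18 and -0.88 for Hopx, and a mitochondrial limit of 5% gave -0.29 for Krt8. In club-gated cells, thinning, which left 5 to 7 UMIs, turned Sfn to -0.0291 and Cdkn1a to -0.25, and gave 0.49 for Hopx. A gate with 1 more marker gave 0.32 for Krt7, 1.10 for Krt19 and 2.27 for Cdkn1a, and 1 fewer marker gave 1.23 for Krt7. Means over cells gave 0.24 for Krt7 and 0.43 for Krt8. Leaving the class's own markers out of the total gave 0.43 for Krt8, 0.20 for Krt18 and 0.40 for Krt19. Cells that pass exactly 1 gate gave 1.06 for Krt8 and 0.99 for Krt19. Subtracting the median of all genes gave 0.48 for Krt8, and leaving out the richest cell of each library 0.23 for Krt7 and -0.19 for Cldn4. In ciliated-gated cells thinning gave 0.0063 for Krt8. The cause of these shifts was not tested. Unthinned AT2 shares in control and fibrosis were 22.4% and 25.5% for Krt7, 43.0% and 37.4% for Krt8, 42.6% and 42.4% for Krt18, 12.3% and 10.2% for Krt19, 15.4% and 15.1% for Sfn, 19.4% and 18.2% for Cdkn1a, and 6.99% and 5.65% for Hopx; Cldn4 was in 0.647% of fibrosis cells, and at least 3 genes were in 19.2% and 18.9%. With 436 genes past 2-fold higher and 134 lower in AT2-gated cells, a minimum of 50 UMIs gave 218 and 51, and no filter 1589 and 1020. Depth limits Cldn4 above all, with 22 UMIs in AT2-gated cells.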

Other observations

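Mesothelial-gated cells, 28 in control and 27 in fibrosis, had the keratin pattern of a simple epithelium. Krt7 was at 786 and 653 UMIs per 1000000 (CPM), Krt18 at 336 and 272, and Krt8 at 221 and 264. Krt19 was at 997 and 1214, with a log2 ratio of 0.28 (0.02 to 0.54). Cldn4 had 0 UMIs in both, and Sfn 1 and 0. Cdkn1a was at 391 and 419 CPM.

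In blood-derived classes the level of Cdkn1a differed in both directions. Monocyte-gated cells had 60.1 and 40.2 CPM (log2 ratio -0.58, -0.95 to -0.23). Neutrophil-gated cells had 38 UMIs in 694 control cells and 37 UMIs in 116 fibrosis cells, 24.0 and 98.2 CPM (2.04, 1.34 to 2.73). In this class 21.4% of 5197 genes had an interval above 0 and the median log2 ratio of all genes was 0.32. A single fibrosis cell held 11 of the 37 UMIs. Without the cell richest in Cdkn1a in each library, the levels were 22.1 and 71.3 CPM (1.69, 0.90 to 2.46). Hopx was at 63.5 and 59.8 CPM in monocyte-gated cells and at 33.2 and 37.0 in T cell-gated cells, within counting error.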
